A study of Mus musculus with 4 samples.

Results

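A set of 9 genes of the neural progenitor and oligodendrocyte lineage was followed through 4 RNA sequencing libraries of mouse brain. The 9 genes, of 54532 in the deposited tables, were given as a list of symbols and not by any cut on their values. The list was however chosen with earlier results of these data known. The genes are Sox10, Sox9, Sox2, Olig1, Olig2, Pdgfra, Cspg4, Nes and Prom1, and all 9 were found by their Ensembl identifiers. Of these, 5 encode transcription factors, and the other 4 encode a growth factor receptor, a surface proteoglycan, an intermediate filament and a membrane glycoprotein.

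The libraries came from C57BL/6 mice and crossed age with the presence of a brain tumor. Young mice were 8 to 12 weeks old. Old mice were labelled as 8 to 90 weeks, so the lower end of that range is the same as for the young. Tumor-bearing mice of each age had received 50000 GL261 cells, a mouse glioma line that grows in C57BL/6 hosts, engrafted into the brain, and brain tissue from outside the tumor was taken at day 21. Naive mice of each age were the controls, although their labels carry the GL261 cell line tag too. There was 1 library in each of the 4 groups, and the number of mice behind each library is not given. No difference between groups therefore has a replicate check, and no test was made. The intervals printed below are exact 95% intervals of the recovered reads. These intervals hold only the error of counting: without molecular identifiers, reads are not independent molecules, and the spread between mice is outside them.

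Oligodendrocytes, the myelin-forming glia, arise from oligodendrocyte precursor cells (OPCs), which persist in the adult brain and still divide there. OPCs carry the receptor encoded by Pdgfra and the proteoglycan encoded by Cspg4, known as NG2, on their surface. They express Olig1, Olig2 and Sox10, which are needed for the lineage and of which Sox10 and Olig2 are kept in mature oligodendrocytes. Sox2, Sox9, Nes and Prom1 are expressed in neural stem and progenitor cells. Sox9 is kept by astrocytes, and Cspg4 is also made by pericytes, Nes by reactive astrocytes and new vessels, and Prom1 by ependymal cells. Several of the 9 are widely used as markers of glioma stem-like cells.

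Levels are in FPKM, which scales the fragments of a gene by its length and by depth. The libraries held 19572261 to 23267928 recovered fragments in genes. At this depth each of the 9 genes had 142 to 11072 reads in each library. The depth divisor behind the FPKM was 0.797 to 0.914 of the fragments in genes in the first 3 libraries and 1.19 in the old tumor-bearing library. That library also differed in mitochondrial reads, at 2.12% of fragments against 4.72% to 5.51% elsewhere. Brain markers were present in every library, with neuronal Rbfox3 at 54.5, 57.3, 79.6 and 10.2 FPKM and myelin Mbp at 425, 397, 356 and 188 FPKM in the order young naive, young tumor-bearing, old naive, then old tumor-bearing tissue. Each set of 4 values below follows this order. In bulk tissue, fewer cells of a type and less RNA per cell cannot be told apart.

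**Figure D1:**
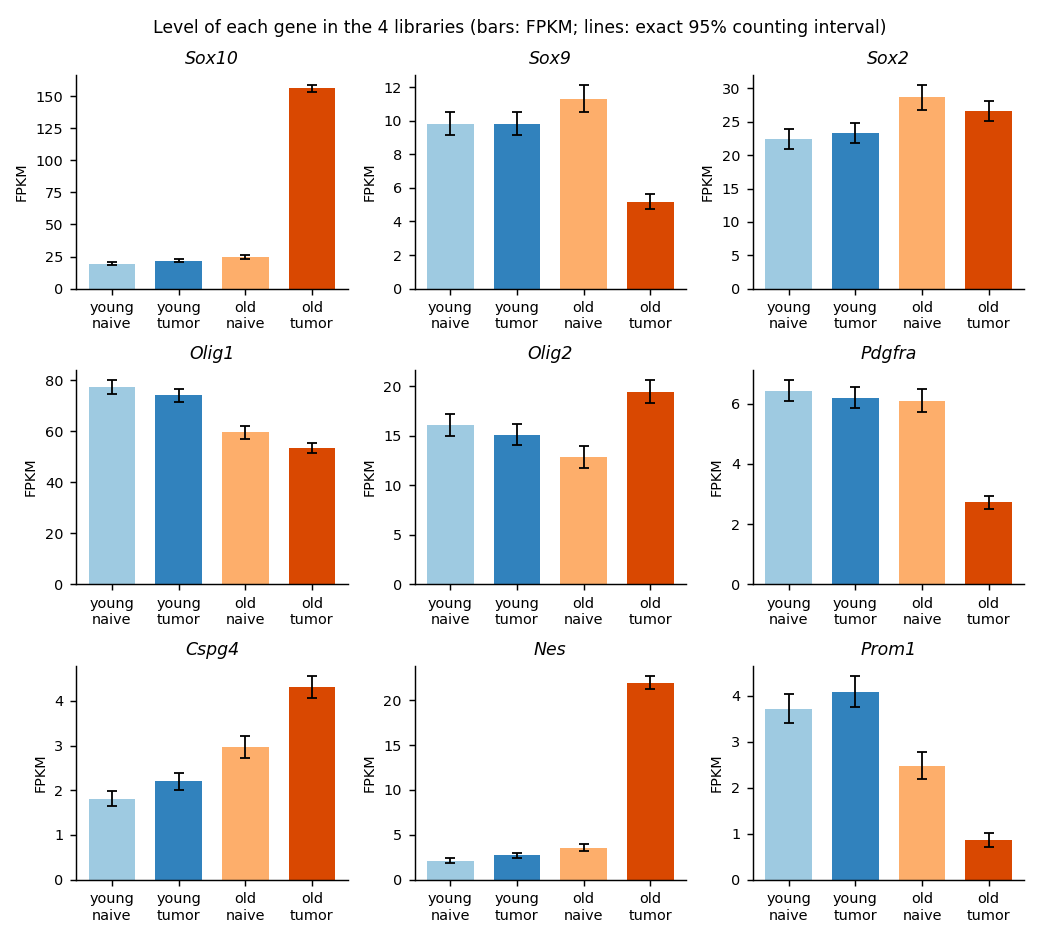
FPKM of each of the 9 genes in the 4 libraries (bars), with the exact 95% counting interval of the reads (lines) and a separate linear axis from 0 for each gene. Sox10 and Nes stand far above the other libraries in old tumor-bearing tissue, at 156 and 22.0 FPKM, while Sox9, Pdgfra and Prom1 have their lowest bars there.

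Sox10, the SoxE transcription factor that marks the oligodendrocyte lineage and neural crest derivatives, lies at chr15:79154908-79165240 on the minus strand (ENSMUSG00000033006, mm10). Its level was 19.4, 21.9, 24.5 and 156 FPKM. The first 3 libraries spanned 1.26-fold, and the old tumor-bearing library stood alone above them. There Sox10 was 6.38-fold (6.00 to 6.78) above old naive tissue. It ranked first of the 9 genes in that library, where Olig1 ranked first in the other 3, and it lay above 98.8% of all genes at 1 FPKM or more against 79.5% in young naive tissue.

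Sox9, the SoxE factor of neural stem cells and astrocytes, lies at chr11:112782224-112787760 on the plus strand (ENSMUSG00000000567). Its level was 9.83, 9.82, 11.3 and 5.16 FPKM, so that it was lowest in the library where Sox10 was highest. The young pair did not differ beyond counting error. In old tumor-bearing tissue Sox9 was 2.19-fold lower (1.95 to 2.46) than in old naive tissue.

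Sox10 and Sox9 are close relatives, and reads from a shared stretch could be credited to the wrong gene. The coding stretches of 120 bases in which they are most alike, bases 196 to 315 of the Sox10 and 199 to 318 of the Sox9 coding sequence (GENCODE M21 transcripts), are shown here for that reason, with the 8 bases that differ in capitals.
Sox10: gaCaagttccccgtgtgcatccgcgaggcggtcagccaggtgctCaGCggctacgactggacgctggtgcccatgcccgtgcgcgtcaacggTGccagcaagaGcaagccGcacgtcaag
Sox9: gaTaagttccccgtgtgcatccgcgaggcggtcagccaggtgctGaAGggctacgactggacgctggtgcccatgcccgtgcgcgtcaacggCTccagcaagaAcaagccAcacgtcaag
The stretches share 112 of 120 bases (93.3%), yet the longest run of identical bases in the transcripts of both genes was 44. The ratio of Sox10 to Sox9 FPKM within a library was 1.97, 2.23, 2.17 and 30.3. It was 14.0-fold (12.3 to 15.9) higher in old tumor-bearing than in old naive tissue, and this ratio does not depend on how the library is scaled.

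Sox8, the remaining SoxE gene, was at 14.4, 14.0, 17.2 and 6.74 FPKM and thus went the way of Sox9. Sox10 to Sox8 was 1.34, 1.56, 1.43 and 23.1, a pair added after its values were seen. On the deposited scale Sox10 was the single SoxE gene that was higher in old tumor-bearing than in old naive tissue.

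Sox2, the SoxB factor of neural stem cells, is a gene of 1 exon at chr3:34650405-34652461 on the plus strand (ENSMUSG00000074637). Its level was 22.4, 23.3, 28.6 and 26.6 FPKM, on the deposited scale the narrowest range of the 9 genes at 1.28-fold. On that scale neither the young pair nor the old pair differed beyond counting error, and what separation there was ran by age. Under the other depth scalings described below, the log2 ratio of old tumor-bearing against old naive tissue was 0.27 to 0.47. The old pair was then further apart. The log2 ratio of old against young naive tissue ranged from 0.13 to 0.35 between scalings. Sox2 in old tumor-bearing tissue was 0.928-fold (0.852 to 1.01) that of old naive tissue on the deposited scale. Sox2 lies inside the noncoding gene Sox2ot on the same strand, with 0 shared exon bases. Sox2ot was at 2.56, 2.38, 2.32 and 1.08 FPKM, 2.15-fold lower (1.85 to 2.51) in old tumor-bearing than in old naive tissue, while the interval of Sox2 held 1.

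Olig2 and Olig1 encode basic helix-loop-helix factors of the oligodendrocyte lineage and stand side by side on the plus strand of chromosome 16, at chr16:91225457-91228677 (ENSMUSG00000039830) and chr16:91269772-91271933 (ENSMUSG00000046160), 41094 bases apart. Their most alike coding stretches are printed because the pair parted in old tumor-bearing tissue, with differing bases in capitals (bases 378 to 497 of Olig1 and 405 to 524 of Olig2).
Olig1: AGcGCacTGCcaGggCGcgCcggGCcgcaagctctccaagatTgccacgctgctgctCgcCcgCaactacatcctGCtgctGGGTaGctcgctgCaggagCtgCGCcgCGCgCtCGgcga
Olig2: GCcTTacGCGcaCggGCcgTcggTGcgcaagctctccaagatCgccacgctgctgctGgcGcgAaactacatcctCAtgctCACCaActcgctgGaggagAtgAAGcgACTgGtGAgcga
Here 85 of 120 bases were identical (70.8%), and the longest identical run in the transcripts was 17 bases.

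Olig1 was at 77.4, 74.1, 59.5 and 53.4 FPKM. Both old libraries lay below both young libraries, and the young pair did not differ beyond counting error. Olig2 was at 16.1, 15.1, 12.8 and 19.5 FPKM, with its lowest value in old naive and its highest in old tumor-bearing tissue. From old naive to old tumor-bearing tissue Olig2 was 1.52-fold higher (1.36 to 1.69) and Olig1 was 0.897-fold (0.847 to 0.951) of the naive level on the deposited scale. The Olig1 to Olig2 ratio was 4.81, 4.91 and 4.64 in the first 3 libraries and 2.75 in old tumor-bearing tissue, 1.69-fold lower (1.498 to 1.908) than in old naive tissue. Exons of Olig1 share 157 bases with Gm15966 on the opposite strand, which was at or below 0.0419 FPKM in every library.

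Pdgfra, the receptor through which PDGF drives OPC division and survival, lies at chr5:75152292-75198215 on the plus strand (ENSMUSG00000029231). Its level was 6.43, 6.20, 6.10 and 2.72 FPKM. The first 3 libraries did not differ from their neighbours in this order beyond counting error, and the old tumor-bearing library lay below all of them, 2.24-fold lower (2.02 to 2.48) than old naive tissue. Cspg4, the NG2 proteoglycan of OPCs and pericytes, lies at chr9:56865033-56899870 on the plus strand (ENSMUSG00000032911). It was at 1.82, 2.20, 2.97 and 4.31 FPKM, and each step of that order exceeded counting error. The step from old naive to old tumor-bearing tissue was 1.45-fold (1.31 to 1.61). The 2 surface markers of the same precursor cell thus went opposite ways. Pdgfra to Cspg4 was 3.54, 2.82, 2.05 and 0.631, so that the Pdgfra level exceeded Cspg4 per length in 3 libraries and was below it in old tumor-bearing tissue, a 3.26-fold (2.82 to 3.76) lower ratio than in old naive tissue.

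Pericytes also make Cspg4, and their receptor gene Pdgfrb is given beside it. Pdgfrb was at 4.61, 5.72, 7.78 and 2.75 FPKM. Cspg4 to Pdgfrb was 0.394, 0.384 and 0.381 in the first 3 libraries and 1.57 in old tumor-bearing tissue, 4.11-fold (3.48 to 4.86) higher than in old naive tissue. This pair was added after its values were seen. Of 12 measured pericyte and mural cell genes, 6 were at least 2-fold lower and 1, Mcam, was higher in old tumor-bearing than in old naive tissue. Of all genes, 31.4% were lower and 20.6% higher. With fragments in genes as depth 1 of the 12 was lower and 2 were higher, beside 3362 lower and 5014 higher of 16488 genes. The summed level of the pericyte and mural cell list was 104, 105, 111 and 299 FPKM, of which Mcam made 261 FPKM in old tumor-bearing tissue. The part of pericytes in the Cspg4 level was not tested.

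Among the other PDGF genes, the ligand gene Pdgfa was at 11.4, 9.52, 12.3 and 6.82 FPKM. Pdgfb was at 7.25, 8.45, 11.0 and 4.82 FPKM and Pdgfc at 1.32, 1.32, 1.59 and 0.693 FPKM. Pdgfd was at 3.09, 2.96, 1.24 and 0.832 FPKM. These 4 ligand genes and both receptor genes had their lowest deposited level in the old tumor-bearing library. Of the 6 measured PDGF ligands and receptors, which include Pdgfra, 4 were at least 2-fold lower than in old naive tissue and 0 were higher. Of all genes, 31.4% were lower and 20.6% higher. With median-of-ratios scaling 1 of the 6 was lower, and with fragments in genes as depth 0 were 2-fold apart. Of the 16488 genes, 3931 were lower and 4377 higher under the former, and 3362 lower and 5014 higher under the latter.

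Nes encodes nestin, an intermediate filament of neural progenitors, and lies at chr3:87971078-87980451 on the plus strand (ENSMUSG00000004891). Its level was 2.11, 2.70, 3.58 and 22.0 FPKM, the widest range of the 9 genes at 10.4-fold. As with Sox10, old tumor-bearing tissue stood alone, 6.14-fold (5.50 to 6.87) above old naive tissue, and the order of the other 3 libraries was the same as for Sox10. Vim, whose product vimentin assembles with nestin, was at 19.6, 49.6, 10.1 and 347 FPKM. Its profile was not that of Nes, since Nes to Vim was 0.108, 0.0545, 0.355 and 0.0633, and Vim was 34.42-fold (32.01 to 37.05) higher in old tumor-bearing than in old naive tissue. Gfap, the astrocyte filament gene, was at 61.1, 149, 42.2 and 167 FPKM. The Nes to Vim pair and Gfap were chosen after their values were seen.

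Prom1 encodes prominin-1, or CD133, a glycoprotein of membrane protrusions in progenitor and ependymal cells, and lies at chr5:43993620-44102032 on the minus strand (ENSMUSG00000029086). It was at 3.72, 4.08, 2.47 and 0.851 FPKM. Old libraries lay below young ones, and the old tumor-bearing library was lowest, at 142 reads. Prom1 was 2.90-fold lower (2.36 to 3.57) there than in old naive tissue and 4.80-fold lower (3.99 to 5.81) than in young tumor-bearing tissue. The ependymal gene Foxj1 was at 4.01, 5.72, 2.39 and 3.74 FPKM, so that of the old libraries it was higher in the tumor-bearing one, unlike Prom1. Prom1 exons share 424 bases with Gm16401 on the opposite strand, which was at 0.259 FPKM or less in every library.

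In young mice the tumor-bearing library differed little from the naive one in the 9 genes. Tumor-bearing against naive tissue gave 0 of 9 genes at least 2-fold apart, beside 6.90% of the 15500 genes at 1 FPKM or more in either library (5.05% higher, 1.85% lower). Folds here are ratios of FPKM, and a gene was counted as 2-fold apart on log2 of FPKM + 0.1. The log2 ratios of the 9 ran from -0.09 to 0.34 with a median of 0.06, against -0.01 over all genes. Nes was 1.28-fold higher (1.09 to 1.51), Cspg4 was 1.21-fold higher (1.07 to 1.38) and Sox10 was 1.13-fold higher (1.04 to 1.22), and for these 3 the interval left out 1. The direction of Sox9 and Pdgfra, the 2 genes with log2 ratios nearest to 0, turned to above 0 under other scalings.

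In old mice the 9 genes spread widely. Against old naive tissue, 5 of 9 were at least 2-fold apart in old tumor-bearing tissue, beside 52.0% of 16488 genes, so the count itself is near the background of this comparison. Sox10 and Nes were higher, beside 20.6% of all genes, and Sox9, Pdgfra and Prom1 were lower, beside 31.4%. The median log2 ratio of the 9 was -0.11 against -0.31 over all genes. Sox10 stood above 92.9% and Nes above 92.5% of measured protein-coding genes in this ratio, and Prom1 stood above 20.8%.

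The levels of the old tumor-bearing library depend on the scaling. With counts of recovered fragments in genes as the depth, the median log2 ratio of all genes moved by 0.56, and the split of all genes at least 2-fold apart went from 3395 higher and 5171 lower to 5014 higher and 3362 lower. Under the 5 scalings the log2 ratio of Sox10 ranged from 2.67 to 3.24 and that of Nes from 2.59 to 3.16. Sox9 ranged from -1.12 to -0.55, Pdgfra from -1.14 to -0.58 and Prom1 from -1.43 to -0.90, below 0 throughout, and each was within 2-fold under at least 1 scaling. Olig2 and Cspg4 were above 0 throughout and reached 1.17 and 1.09. Sox2 and Olig1, slightly below 0 on the deposited scale, were above 0 under each of the 4 other scalings, at up to 0.47 and 0.42. A scaling shifts all genes of a library alike, so the distance between the genes was hardly affected.

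**Figure D2:**
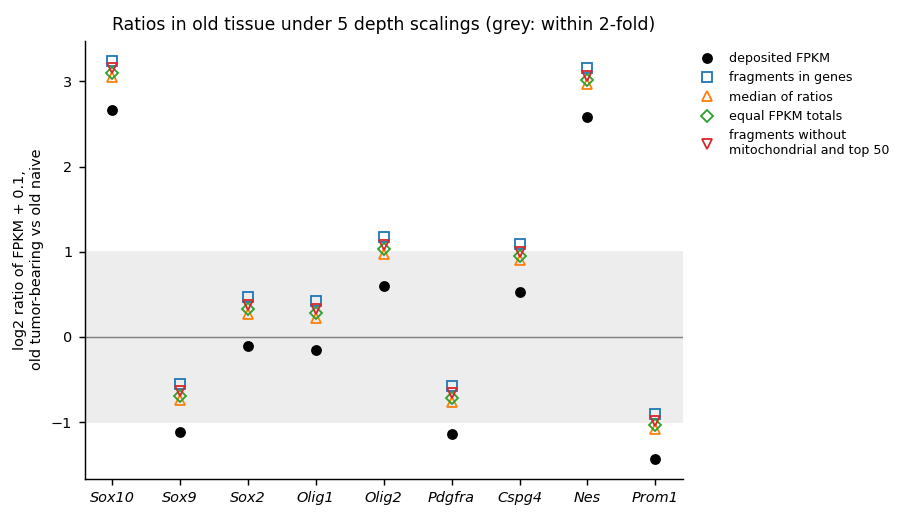
Log2 ratio of FPKM + 0.1, old tumor-bearing against old naive tissue, for each of the 9 genes under the deposited scale (black) and 4 other depth scalings (open symbols). All 4 shift every gene upward, Sox2 and Olig1 cross 0, and Sox10 and Nes range from 2.67 to 3.24 and from 2.59 to 3.16.

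Old and young naive tissue were closer in the 9 genes. Old against young naive tissue gave 0 of 9 at least 2-fold apart, beside 11.6% of 15419 genes (6.71% higher, 4.93% lower), although for 8 of 9 the counting interval left out 1. How many of all genes had such an interval was not computed. Nes was 1.69-fold higher (1.44 to 1.99) and Cspg4 1.63-fold higher (1.44 to 1.86) in old tissue. Prom1 was 1.51-fold lower (1.30 to 1.75), Olig1 was 1.30-fold lower (1.23 to 1.37) and Olig2 was 1.25-fold lower (1.12 to 1.40). Sox2 was 1.28-fold (1.17 to 1.40), Sox10 1.26-fold (1.16 to 1.37) and Sox9 1.15-fold (1.04 to 1.27) higher, of which Sox9 turned to a log2 ratio of -0.03 with equal FPKM totals. For Pdgfra the interval held 1, at 0.949-fold (0.872 to 1.03). Some neuronal genes differed more between these libraries. Neurod1 was at 37.9 FPKM in young and 3.98 FPKM in old naive tissue, and Camk2a at 280 and 575 FPKM. The labels do not say whether the same brain regions were sampled at both ages, and the part of region in these folds was not tested.

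Between the tumor-bearing libraries, 4 of 9 genes were at least 2-fold apart, beside 48.9% of 16562 genes (19.0% higher, 29.8% lower). Nes was 8.12-fold (7.27 to 9.10) and Sox10 7.13-fold (6.74 to 7.56) higher in old tissue, and Prom1 and Pdgfra were 4.80-fold and 2.28-fold lower. Cspg4 was 1.96-fold higher (1.77 to 2.18) and Sox9 was 1.90-fold lower (1.70 to 2.13), close to the 2-fold line. Which genes pass that line depends on the scaling. Under the 5 scalings the log2 ratio of Pdgfra ranged from -1.16 to -0.78 and that of Cspg4 from 0.94 to 1.32. Nes, Sox10 and Prom1 stayed past 2-fold. This comparison shares the old tumor-bearing library with that against old naive tissue, so they are not independent.

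**Figure D3:**
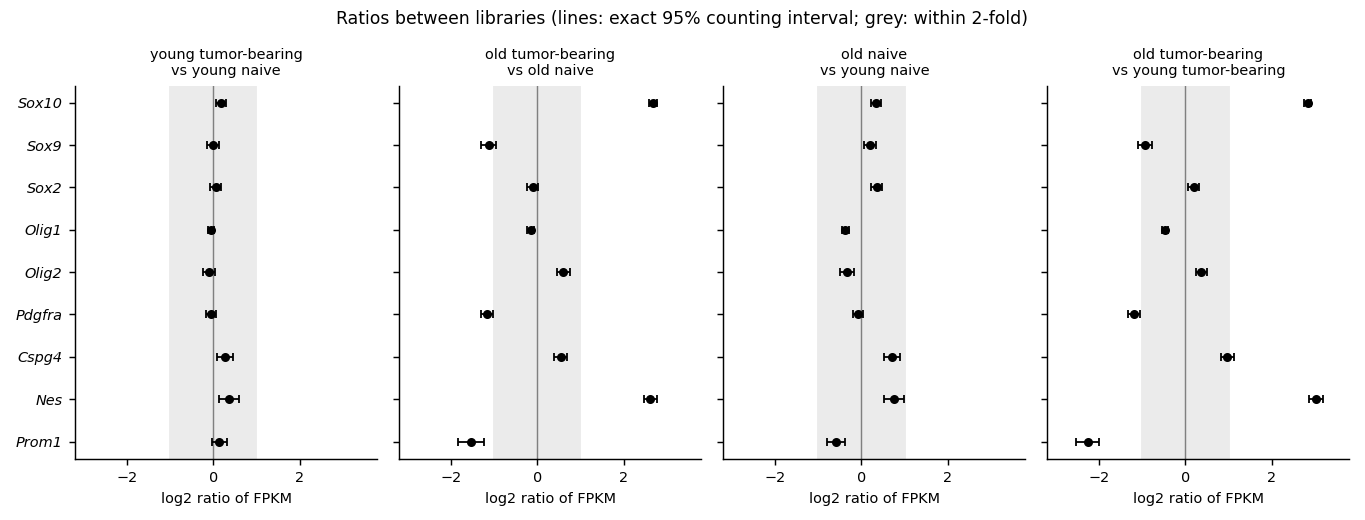
Log2 ratio of FPKM between libraries for each of the 9 genes in 4 comparisons, with exact 95% counting intervals (lines) and the range within 2-fold in grey. All 9 genes lie within the grey band in the young tumor and the naive age comparison, and Sox10 and Nes lie far to the right in the comparisons that hold the old tumor-bearing library.

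The difference between the old and the young tumor ratio was largest upward for Sox10, at 2.49 on the log2 scale (a ratio of folds of 5.65, 5.11 to 6.24), and for Nes, at 2.24 (4.79, 3.94 to 5.83). It was 0.69 for Olig2 and 0.26 for Cspg4. Downward it was largest for Prom1, at -1.57 (ratio of folds 0.314, 0.246 to 0.399), followed by Sox9 at -1.11 and Pdgfra at -1.08. For Sox2, at -0.16, and Olig1, at -0.09, the counting interval of the ratio of folds held 1. A difference of at least 1 was found for 5 of 9 genes, beside 51.3% of 17441 genes. Under the 4 other scalings the differences were higher, at 2.87 to 3.01 for Sox10, 2.62 to 2.76 for Nes and -1.22 to -1.09 for Prom1. Those of Sox9 (-0.74 to -0.60) and Pdgfra (-0.71 to -0.58) were then less than 1 in size, and that of Olig2 (1.07 to 1.21) was above 1. Sox2 (0.21 to 0.35) and Olig1 (0.28 to 0.43) turned from below to above 0.

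Ratios between genes within a library do not move with the depth scaling. Sox10 to Olig2, 2 factors of the same lineage, was 1.20, 1.45, 1.91 and 8.02. It was 4.21-fold (3.72 to 4.75) higher in old tumor-bearing than in old naive tissue, and already 1.58-fold (1.38 to 1.82) higher in old than in young naive tissue. Myrf, the factor that drives myelin genes and is itself activated by Sox10, was at 9.41, 11.9, 10.9 and 7.90 FPKM. Sox10 to Myrf was 2.06, 1.83, 2.24 and 19.8, 8.82-fold (8.03 to 9.70) higher in old tumor-bearing tissue. Sox2 to Sox9, added after its values were seen, was 2.28, 2.37, 2.54 and 5.16, 2.03-fold (1.76 to 2.35) higher there. In each of these 3 pairs the old tumor-bearing library had the highest ratio.

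**Figure D4:**
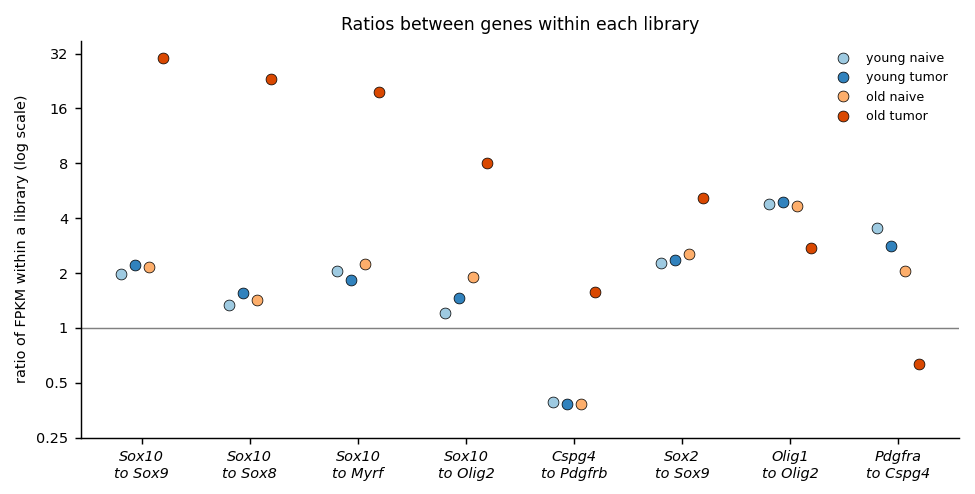
Ratio of FPKM of gene pairs within each library on a log axis, 1 point per library. The ratios of Sox10 to Sox9, Sox8, Myrf and Olig2 are highest in old tumor-bearing tissue (30.3, 23.1, 19.8 and 8.02), and Pdgfra to Cspg4 is below 1 there (0.631).

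The gene lists that follow are read against all genes, of which 20.6% were higher and 31.4% lower by 2-fold or more in the old tumor comparison on the deposited scale. Since that split depends on the scaling, each list is also given with fragments in genes as depth.

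The other genes of OPCs did not follow Sox10. Of 25 listed, 23 were measured, and 15 were at least 2-fold lower and 2 higher in old tumor-bearing than in old naive tissue, with a median log2 ratio of -1.39. With fragments in genes as depth 9 were lower and 4 higher, and the median was -0.87. Their summed level was 284, 306, 367 and 145 FPKM, lowest in old tumor-bearing tissue. Bcan, also an astrocyte gene, Ncan and Cspg5 made 108, 43.8 and 46.2 FPKM of that sum in old naive tissue. In old tumor-bearing tissue they made 34.7, 7.01 and 7.83 FPKM. The part of other cells in this sum was not tested. Tmem132d was 9.26-fold lower (8.00 to 10.8), and the matrix proteoglycan genes Ncan and Cspg5 were 6.24-fold (5.86 to 6.66) and 5.90-fold (5.60 to 6.21) lower. Sox5 was 4.92-fold lower (4.24 to 5.74), while its close relative Sox6, named after its value was seen, was 4.07-fold higher (3.66 to 4.52). The other higher gene was Nkx2-2, a factor of differentiating precursors, at 2.48, 1.90, 1.29 and 2.98 FPKM. In the young comparison 0 of 23 were 2-fold apart, beside 6.90% of all genes.

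The median of genes of committed precursors and new oligodendrocytes lay below that of all genes on both scales, while their counts moved with the scaling. In old tumor-bearing tissue 4 of 14 measured were lower and 3 higher, with a median log2 ratio of -0.54, against -0.31 over all genes. With fragments in genes as depth 1 was lower and 3 were higher, and the median was 0.01, against 0.26 over all genes. Bmp4 was 6.44-fold lower (3.39 to 13.3) and Gpr17, a receptor of committed precursors, was 2.31-fold lower (2.04 to 2.61). Tcf7l2, a factor of new oligodendrocytes, was 4.17-fold higher (3.35 to 5.24), but its level of 2.89 FPKM remained below the young values of 5.01 and 4.51, since old naive tissue was at 0.695. Cnksr3 had the same shape, at 6.04, 7.81, 1.55 and 3.83 FPKM. In old against young naive tissue 3 of 17 of these genes were lower and 0 higher, beside 4.93% and 6.71% of all genes.

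Few myelin genes were 2-fold apart. Of 21 measured, 2 were lower (Car2 by 2.15-fold, 2.03 to 2.27, and Opalin by 2.03-fold, 1.80 to 2.29) and 2 were higher in old tumor-bearing tissue, namely Apod (2.998-fold, 2.871 to 3.131) and Trf (2.80-fold, 2.49 to 3.15), with a median log2 ratio of -0.59. With fragments in genes as depth 0 were lower and 2 higher, and the median was -0.01. The summed level of the list was 1737, 1607, 1225 and 970 FPKM, in the same order as Olig1 and unlike Sox10. In old against young naive tissue 2 of 21, Ugt8a and Tspan2, were 2.22-fold (2.04 to 2.42) and 2.03-fold (1.91 to 2.16) lower, beside 4.93% of all genes. The median of the list was -0.53 there, against 0.06 over all genes.

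Neural stem and progenitor genes, the list nearest to Nes and Sox2, went both ways. Of 34 measured in the old comparison, 10 were higher and 12 lower, with a median log2 ratio of 0.00. With fragments in genes as depth 13 were higher and 11 lower, and the median was 0.57. Hmga2, a chromatin protein gene of fetal and tumor tissue, had 0 reads in old naive and 2412 reads (15.3 FPKM) in old tumor-bearing tissue, and Cd44, a hyaluronan receptor gene, was 43.2-fold higher (33.6 to 56.4). Vim is given above, and Tnc was 7.30-fold higher (5.64 to 9.58). Among the lower genes were the stem cell factors Lhx2, at 10.9, 11.5, 18.2 and 3.32 FPKM, and the Notch target Hes5, at 3.09, 4.88, 6.14 and 1.01 FPKM. These 2 were picked after their values were seen. In young tissue 2 of 35 were higher, Cd44 (2.54-fold) and Vim (2.53-fold), and 0 were lower, beside 5.05% and 1.85% of all genes.

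In the Sox family, which includes 3 of the 9 genes, 3 of 15 measured genes were higher and 9 lower in old tumor-bearing than in old naive tissue, with a median log2 ratio of -1.33. With fragments in genes as depth 3 were higher and 4 lower, and the median was -0.76. The higher ones were Sox10, Sox6 and Sox4, the last at 2.87, 2.86, 2.51 and 9.08 FPKM. Sox21 was 4.74-fold (3.70 to 6.13) and Sox1, another SoxB gene, 4.47-fold lower (3.66 to 5.49), whereas Sox2 was not. Of 14 neuroblast genes 10 were lower and 1, Sox4, was higher (8 and 2 with fragments in genes as depth), with Dlx5 11.1-fold (7.12 to 18.3) and Dcx 8.51-fold (6.84 to 10.7) lower.

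Sox10 is also a factor of the neural crest, Schwann cells and melanocytes, so genes of those cells were set beside it. Of 23 listed, 12 were measured in the old comparison, and 5 were higher and 2 lower, while the other 11 were below 1 FPKM in both old libraries. The median log2 ratio of the 12 was -0.47, against -0.31 over all genes. With fragments in genes as depth 5 were higher and 1 lower, and the median was 0.09, against 0.26 over all genes. Kit, 1 of the 2 lower genes, was 2.96-fold lower (2.62 to 3.35). Ngfr, a neurotrophin receptor gene, was at 1.35, 1.42, 1.80 and 37.9 FPKM. Cdh19 was 6.30-fold (5.43 to 7.35), Ets1 5.88-fold (5.21 to 6.64) and Erbb3, the neuregulin receptor gene, 3.05-fold higher (2.70 to 3.45). Tfap2a had 1 read in old naive and 498 reads in old tumor-bearing tissue, a ratio of 335 (59.9 to 13261), but its young libraries were at 0.658 and 0.693 FPKM. The neural crest gene Foxd3 had 0 reads in each of the 4 libraries, and the melanocyte gene Tyr had 0, 3, 1 and 0 reads, so neither shows a difference. Scn7a was at 0.527, 0.668, 1.13 and 0.170 FPKM. These 3 were picked after their values were seen. The summed level of the list was 71.8, 77.0, 55.6 and 112 FPKM. The part of such cells in the Sox10 level was not tested.

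Markers of other cells differed strongly in the same library. All 20 cell cycle genes were higher in old tumor-bearing than in old naive tissue under either scale, and their summed level was 29.0, 44.2, 28.7 and 497 FPKM. Of 12 microglia and macrophage genes 7 were higher and 0 lower (8 and 0 with fragments in genes as depth), with summed levels of 149, 226, 217 and 766 FPKM. Of 14 neuronal genes 13 were lower and 0 higher under either scale, with summed levels of 2274, 2012, 2958 and 550 FPKM, and of 16 astrocyte genes 12 were lower and 1, Gfap, was higher (8 and 1 with fragments in genes as depth). Of 7 cartilage genes 5 were higher and 1 lower (6 and 1), with Col2a1 at 0.201, 1.16, 0.505 and 78.9 FPKM. Fibroblast genes were 4 higher and 4 lower of 12 (6 and 3 with fragments in genes as depth). Endothelial genes were 1 higher and 4 lower of 11, but 1 higher and 0 lower with fragments in genes as depth. Their median log2 ratio went from -0.30 to 0.26, and that of all genes likewise from -0.31 to 0.26. Ependymal genes were 1 higher and 0 lower of 4 (2 and 0). In young tumor-bearing against young naive tissue 8 of 14 cell cycle genes and 4 of 7 cartilage genes were higher and 0 of either lower. Of all genes, 5.05% were higher and 1.85% lower in that comparison. The part of these cells, or of any engrafted GL261 cells in the sampled tissue, in the levels of the 9 genes was not tested.

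**Figure D5:**
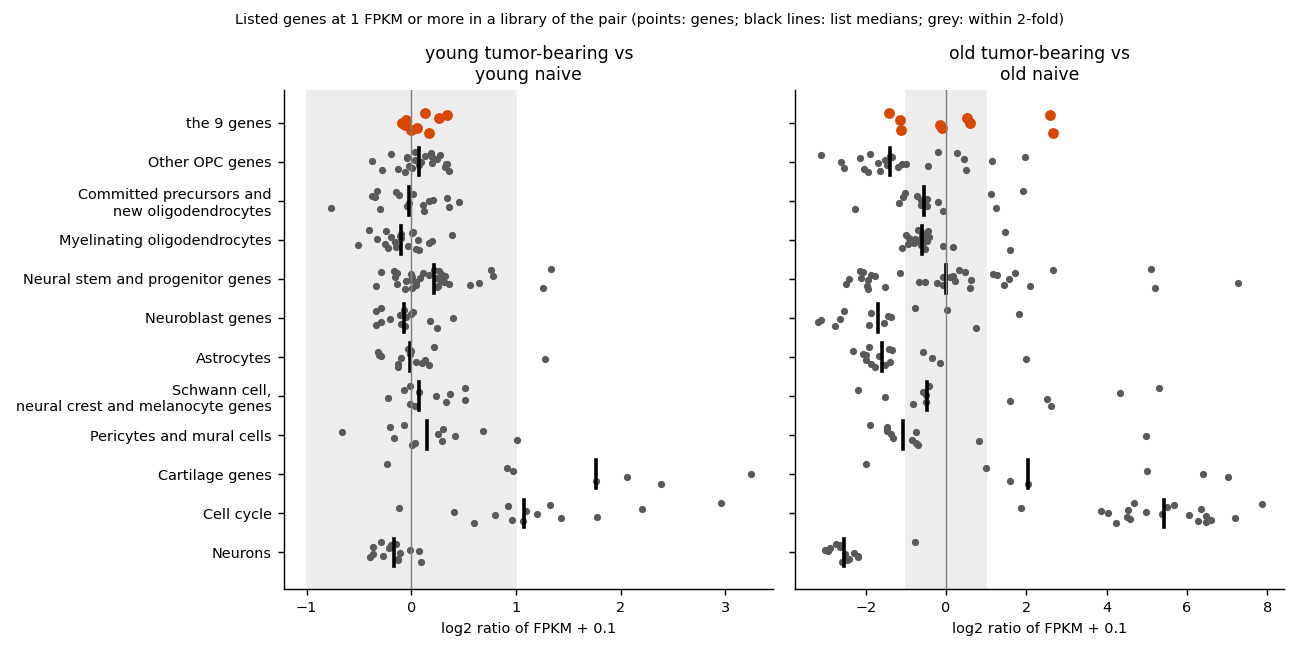
Log2 ratio of FPKM + 0.1 of each listed gene at 1 FPKM or more in a library of the pair (points), for young (left) and old (right) tissue, with list medians as black lines and the range within 2-fold in grey. The 9 genes (orange) lie in the grey band on the left and spread from -1.43 to 2.67 on the right, where the cell cycle median is 5.43 and the OPC median is -1.39.

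Genes with profiles most like each of the 9 were sought among 13902 protein-coding genes, by the Euclidean distance between centred log2 profiles of FPKM + 0.1 over the 4 libraries. For Sox10 they were Rcn1 (distance 0.06), Gins2 (0.11) and Cmpk2 (0.13), and for Nes they were Cad (0.12), Stat5a (0.17) and Mov10 (0.18). Rcn1 for example was at 7.12, 7.62, 8.76 and 57.1 FPKM. For Sox9 the nearest were Msra, Pcdhb10 and Igsf11, for Sox2 Smim11 and Cant1, and for Pdgfra Abca9, Polb and Zfp956. For Olig1 they were Pank3, Gja4 and Prmt3, for Olig2 Ptges3, Traf6 and Ethe1, for Cspg4 Cavin1, Traip and Sipa1, and for Prom1 Eml5, Ccdc166 and the OPC gene Lhfpl3. With 4 libraries close profiles are common: within a distance of 0.5 lay 67 genes for Nes, 140 for Sox10, 358 for Prom1, 720 for Cspg4 and 2369 to 2733 for the other 5. Among the 9 themselves the closest pairs were Sox9 with Pdgfra (0.26) and Sox10 with Nes (0.30), and the farthest was Nes with Prom1 (4.29).

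The genes next to the 9 on the chromosome were read from the same libraries. Polr2f, which encodes an RNA polymerase subunit and ends 3133 bases from Sox10 on the opposite strand, was at 6.79, 6.84, 8.03 and 16.1 FPKM, 2.01-fold (1.77 to 2.28) higher in old tumor-bearing tissue against 6.38-fold for Sox10, and Pick1 on the other side was at 0.961-fold (0.845 to 1.09). Bcan, an OPC and astrocyte proteoglycan gene 7079 bases from Nes on the opposite strand, was at 68.7, 88.0, 108 and 34.7 FPKM, lowest where Nes was highest, and Crabp2 on the other side was 1.92-fold higher (1.30 to 2.91). Kit, next to Pdgfra, was 2.96-fold lower (2.62 to 3.35). Odf3l1, 353 bases from Cspg4 on the opposite strand, was at 0, 0.153, 0.0489 and 2.17 FPKM, and Snx33 on the other side was 2.18-fold higher (1.87 to 2.56). Ifnar2, next to Olig1, was 2.72-fold higher (2.31 to 3.21). Kcnj2 and Slc39a11 beside Sox9 were 4.16-fold lower (3.43 to 5.07) and 1.72-fold higher (1.48 to 2.01). Fgfbp1 beside Prom1 was 4.88-fold lower (2.64 to 9.62), and Tapt1 was 1.30-fold higher (1.21 to 1.40).

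Promoter windows from RefSeq (GRCm38.p6, the assembly of mm10) were found for 6 of the 9 genes, in 7 entries. Sox10, Sox9 and Olig1 were not matched. The windows upstream of Nes and Pdgfra are shown because these genes lay on opposite sides in old tumor-bearing tissue and differ in CpG content. Capitals mark CG pairs, and both windows are on the plus strand and stop at or before the annotated start of the gene, at chr3:87970843-87971077 for Nes and chr5:75152001-75152250 for Pdgfra.
Nes: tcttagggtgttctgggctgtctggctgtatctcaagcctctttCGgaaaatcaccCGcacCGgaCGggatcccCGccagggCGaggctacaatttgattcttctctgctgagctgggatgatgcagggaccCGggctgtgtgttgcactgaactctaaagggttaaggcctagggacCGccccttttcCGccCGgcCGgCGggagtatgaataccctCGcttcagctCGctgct
Pdgfra: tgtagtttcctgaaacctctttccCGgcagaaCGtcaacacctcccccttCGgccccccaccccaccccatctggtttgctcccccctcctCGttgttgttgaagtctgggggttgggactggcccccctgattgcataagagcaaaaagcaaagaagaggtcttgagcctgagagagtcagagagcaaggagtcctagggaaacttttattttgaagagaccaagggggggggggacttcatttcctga
The Nes window held 14 CG pairs and the Pdgfra window 4, beside a median of 6 per 250 bases over 32851 promoter entries. The Sox core motif ACAANG, searched on both strands, was present in the first 250 bases of the windows of Sox2, Olig2, Pdgfra and 1 of the 2 Prom1 entries, and in 36.3% of all entries. It was not among the letters of the Nes and Cspg4 windows. The E-box CAGCTG was in none of the 7 windows and in 13.0% of all entries. CCAAT was in the windows of Sox2, Olig2 and Prom1 (33.8% of all), and TATAAA in that of Olig2 (12.4% of all). The searched bases of Olig2, Cspg4 and Nes ran past the annotated start of the gene, and both Prom1 windows lay inside the gene. A match is a run of letters and not a site of binding.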

How the data were processed

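The deposited files hold 1 FPKM value per gene and library, computed by the authors from paired-end poly-A RNA reads, per the file headers and the labels' protocols. The submitters' processing notes name HISAT2 and mm10. How genes were counted, with which annotation and filters, and whether mice were pooled is not given in the sources used here. Both a directional and a non-directional kit are described per the labels' protocols, so reads of overlapping genes on opposite strands cannot be told apart. Symbols, exon lengths and positions were taken from GENCODE M21. FPKM times exon length fell on whole steps of 1 read in each library, which gave the reads of each gene and the authors' depth divisors (20445811, 19999587, 15646445 and 23253750). Of 32846 genes above 0, 31928 (97.2%) came out whole in all 4 libraries, within 0.03 reads or 2e-05 of the value, all 9 described genes among them. The 37 genes without a length were left out.

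Genes were compared where either library of a pair reached 1 FPKM, and log2 ratios were of FPKM + 0.1, which understates differences of low genes. All 9 genes passed in every comparison. Folds are ratios of FPKM with exact conditional binomial 95% intervals of the reads, and ratios of ratios have exact conditional odds ratio intervals (scipy 1.17.1, numpy 2.4.6, pandas 2.3.3, Python 3.11.15, figures with matplotlib 3.10.9). The interval and read recovery code was tested on simulated data. A count of 0 reads allows up to 3 reads. Other settings tried were pseudocounts, floors, fold thresholds and 4 depth scalings. Lists of OPC, oligodendrocyte, stem cell, Sox family, PDGF and other cell type genes were described by counts and medians. The 9 genes and the lists were chosen with earlier results of these data known. From each list, up to 4 genes with the largest absolute log2 ratio in the comparison described are named. Genes next to the 9 on the chromosome, the 3 most similar profiles per gene and a short set of lineage genes are named too, and the text says where others were added. Tmem2 of the committed precursor list could not be matched. A few named genes are left out of the text and not reported here.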

Additional observations from a re-analysis of the deposited data

Results flagged for a closer look

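For 3 of the 9 genes the tumor ratio went one way in young and the other way in old tissue on the deposited scale. The share of all genes with such opposite signs was not computed, so this count has no background to be read against. Prom1 had a log2 ratio of 0.13 in young and -1.43 in old tissue, a difference of -1.57. Olig2 had -0.09 in young and 0.60 in old tissue, a difference of 0.69. Sox2 had 0.06 in young and -0.11 in old tissue, a difference of -0.16. Under the 4 other scalings the old ratio of Sox2 was above 0 (0.27 to 0.47), like the young one, and Olig1 then went opposite ways instead, below 0 in young and at 0.22 to 0.42 in old tissue. The counting intervals of the young ratio held 1 for all 3, and so did that of the old ratio for Sox2. With 1 library per group these differences were not tested.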

How the results depend on the processing

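No paired analysis was possible because each group had 1 library. Of the 9 genes, 5 were at least 2-fold apart between old tumor-bearing and old naive tissue (2 higher, 3 lower). This was 2 with a pseudocount of 1 (2 higher), 3 with median-of-ratios scaling (2 higher, 1 lower), 3 when fragments without mitochondrial genes and the 50 highest genes set the depth (3 higher), and 2 at a fold of 3 (2 higher). It was 4 with fragments in genes as depth (4 higher, 0 lower) and 4 with equal FPKM totals (3 higher, 1 lower). Sox10 and Nes were past 2-fold under each of these settings. Old against young naive tissue went from 0 to 2 genes at a fold of 1.5. The count for young tumor-bearing tissue was 0 under each setting run. Over all 16488 genes of the old tumor comparison, 3395 were higher and 5171 lower on the deposited scale. They were 2764 and 3979 with a pseudocount of 1, and 4377 and 3931 with median-of-ratios scaling. With fragments in genes as depth they were 5014 and 3362. The counts over all genes at the other settings are not reported here. The median of all genes in the old tumor comparison moved by 0.37 to 0.56 between scalings, and that of the Schwann cell, neural crest and melanocyte list, -0.47, turned to 0.57 at a floor of 5 FPKM and to 0.09 with fragments in genes as depth. The median of the myelin list went from -0.59 to -0.01 with fragments in genes as depth, while that of all genes went from -0.31 to 0.26. Ratios of reads within a library differed from those of FPKM by gene length alone. Counting error was small at these depths, and differences between mice could not be measured.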

Other observations

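Old and young naive tissue differed in a few stem cell, neuroblast and ependymal genes that lie outside the 9. Of 33 measured stem and progenitor genes 3 were at least 2-fold lower and 0 higher in old tissue, beside 4.93% of all genes lower and 6.71% higher. Pax6 was 3.01-fold (2.54 to 3.57), Hopx 2.41-fold (1.99 to 2.92) and Fabp7 2.09-fold (1.75 to 2.50) lower. Of 15 neuroblast genes 3 were lower and 2 higher. Neurod1, a factor of young granule neurons, was at 37.9 FPKM in young and 3.98 FPKM in old naive tissue, 9.53-fold lower (8.15 to 11.2), and Eomes had 160 reads in young and 0 in old naive tissue. Dlx6, of interneuron precursors, was 2.61-fold higher (1.94 to 3.54). Of 7 ependymal genes 3 were lower and 0 higher, among them Tmem212 with 26 reads in young and 3 in old naive tissue, a ratio of 0.151 (0.0292 to 0.492). Whether the same brain regions were sampled at both ages is not given in the labels.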
